A study of Rattus norvegicus with 12 samples.

Results

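The seminal vesicle secretory protein genes of the rat were followed in the prostate under partial bladder outlet obstruction and under Eviprostat. The family as taken here has 8 genes, Svs1, Svs3a, Svs3b, Svs4, Svs5, Svs6, Svs7 and Semg1. They were found by gene name or description among the non-control probes of the arrays, with older names accepted: the array calls Svs3a Svs3, Svs3b RGD1564090, Svs4 Svp4 and Semg1 Svs2. Each gene had 1 probe, so 8 of 41012 probes were members, and all 8 were among the 36097 probes kept by a filter that asks for Cy5 well above background on 3 or more of 12 arrays.

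Prostate RNA of male rats aged 10 weeks was hybridised to 12 Agilent 2-colour arrays, 3 per group. The groups were obstructed rats given Eviprostat (obstruction/Eviprostat), obstructed rats given vehicle (obstruction/vehicle), sham-operated rats given Eviprostat (sham/Eviprostat) and sham-operated rats given vehicle (sham/vehicle). Obstruction was made with a rubber ring tied around the urethra near the bladder neck. Eviprostat, a plant-based medicine for benign prostatic hyperplasia, was given at 18 mg/kg in each of 2 daily doses, 36 mg/kg per day, over 5 days, and the vehicle was 0.1% Tween 80. Tissue was taken 2 h after the final dose. Dosing began on the day after surgery in obstructed rats but 5 days after it in sham rats, so the effect of obstruction and of time since surgery cannot be told apart. Per the labelling protocol the tissue of the 5 or 6 animals of a group was pooled, yet the labels name the arrays as biological replicates, and which holds was not settled. If each array carried 1 common pool, all p-values cover array-to-array spread and leave out that between animals. In bulk tissue, fewer cells of a type and less RNA per cell cannot be told apart.

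The group's RNA was labelled with Cy5 (red) and co-hybridised with Cy3-labelled (green) sham/vehicle RNA on all arrays, and dyes were not swapped. The sham/vehicle arrays carried the same kind of RNA in both dyes and served as the reference for each group. Cy5 was well above background at 70.9% to 88.4% of spots on an array, and 3 arrays per group set the precision of a value. Each group kept its own position on the 3 slides, so an effect of position and one of group cannot be told apart. Probasin (Pbsn) and beta-microseminoprotein (Msmb), secretory products of the rat prostate, were well above background on every array. Msmb had Cy5 intensities of 115000 to 568000 in obstruction/Eviprostat, 59000 to 309000 in obstruction/vehicle, 125000 to 515000 in sham/Eviprostat and 120000 to 496000 in sham/vehicle, so the labelled tissue bore its markers in all groups.

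The seminal vesicles are paired male accessory glands that empty beside the prostate. In rodents their androgen-dependent epithelium secretes large amounts of the Svs proteins, which form much of the seminal fluid. After ejaculation some of them are cross-linked by a transglutaminase of the coagulating gland, the anterior lobe of the rodent prostate, and set as the copulatory plug. Most of these genes lie side by side on 1 chromosome, in the same neighbourhood as genes for small protease inhibitors with a whey acidic protein domain.

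The probes lay on 3 chromosomes of rat build rn3, as the file headers give it. Those of Semg1 (chr3:155087023-155087082), Svs3b (chr3:155104852-155104911), Svs4 (chr3:155119067-155119126), Svs3a (chr3:155139020-155139079), Svs6 (chr3:155154248-155154307) and Svs5 (chr3:155171865-155171924) stood within 84.8 kb of chromosome 3. The Svs1 probe was at chr4:77383035-77383094 and the Svs7 probe at chr8:35417359-35417418. Whether each lies in coding sequence or in a UTR was not analysed here. Because related genes can share sequence, the probes were set against each other: the longest run of identical bases between any 2 of the 8 probes was 8, between Svs6 and Svs4. Hybridisation of a probe to another member's transcript was not analysed. Shown are stretches of 30 bases, 5′ to 3′, from the probes of Svs3a and Svs3b, whose promoters are near-identical, and of Svs6 and Svs4, which moved differently; capitals mark the longest run that the probe shares with another member's probe.
Svs3a: acacagaatagAAAACAAgtgtttcccaat
Svs3b: ccacagTTCCCAgctctgaagttcgtaaca
Svs6: aggacaagccaCGGTTTGCacaagaaatga
Svs4: aaaagaggagcCGGTTTGCccaagacgtac
Capitals in the Svs6 and Svs4 stretches are the same 8 bases. The Svs3a capitals are a run of 7 bases shared with Semg1. The Svs3b capitals are a run of 6 bases shared with Svs3a, where it stands in small letters near the end of the stretch.

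RefSeq promoters of build GRCr8 were matched for 6 of the 8 genes, all on chromosome 3. Over the 250 bases before the start, Svs3a and Svs3b were 96.8% identical and Svs5 and Svs6 86% identical, while the other pairs were 49.1% to 56.9% identical. The letters TATAAA of the TATA box stood on the gene's strand within the last 50 bases before the start in 5 of the 6 promoters (not Svs4, where they stood at -152), against 2.26% of 33469 rat promoters. They began 28 bases before the start in Svs5, 27 in Svs6 and in Svs3b, 30 in Svs3a and 41 in Semg1. TGTTCT, one arm of an androgen response element and written AGAACA on the other strand, was found in the Svs5 promoter alone, at -199, and in 17.5% of all promoters of the same length on either strand. The promoters of 3 genes that moved together and of Semg1, which did not move with them, are shown over the last 150 bases before the start, with TATAAA in capitals. They are Svs5 (chr3:173415371-173415520 on the plus strand), Svs6 (chr3:173397542-173397691 on the plus strand), Svs3a (chr3:173380935-173381084 on the plus strand) and Semg1 (chr3:173332262-173332411 on the minus strand).
Svs5: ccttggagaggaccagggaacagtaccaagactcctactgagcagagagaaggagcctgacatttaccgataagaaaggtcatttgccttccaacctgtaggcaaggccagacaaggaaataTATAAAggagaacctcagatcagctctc
Svs6: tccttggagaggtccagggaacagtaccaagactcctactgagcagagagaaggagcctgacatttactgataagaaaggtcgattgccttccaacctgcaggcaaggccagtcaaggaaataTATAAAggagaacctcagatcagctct
Svs3a: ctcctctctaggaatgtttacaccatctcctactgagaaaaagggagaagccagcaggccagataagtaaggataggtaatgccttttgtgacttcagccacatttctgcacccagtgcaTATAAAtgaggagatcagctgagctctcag
Semg1: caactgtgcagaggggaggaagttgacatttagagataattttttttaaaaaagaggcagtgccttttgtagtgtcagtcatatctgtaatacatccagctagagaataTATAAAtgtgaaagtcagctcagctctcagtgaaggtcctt
The TATAAA letters were thus present both in promoters of genes that changed and in that of Semg1.

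The first comparison asked what obstruction did under vehicle. Of the 8 genes, 7 were higher in obstruction/vehicle than in sham/vehicle and none was lower, by limma with Benjamini-Hochberg adjustment over all kept probes at a threshold of 0.05. Of all probes tested, 7.16% were called higher and 4.45% lower. The median log2 difference of the 8 members was 5.28, against -0.01 over all probes. Svs5 had the largest absolute log2 difference of all 36097 probes, Svs6 the rank of 3, Svs3a of 5, Svs7 of 8 and Svs4 of 15. Semg1 was the member that did not pass the test.

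**Figure D1:**
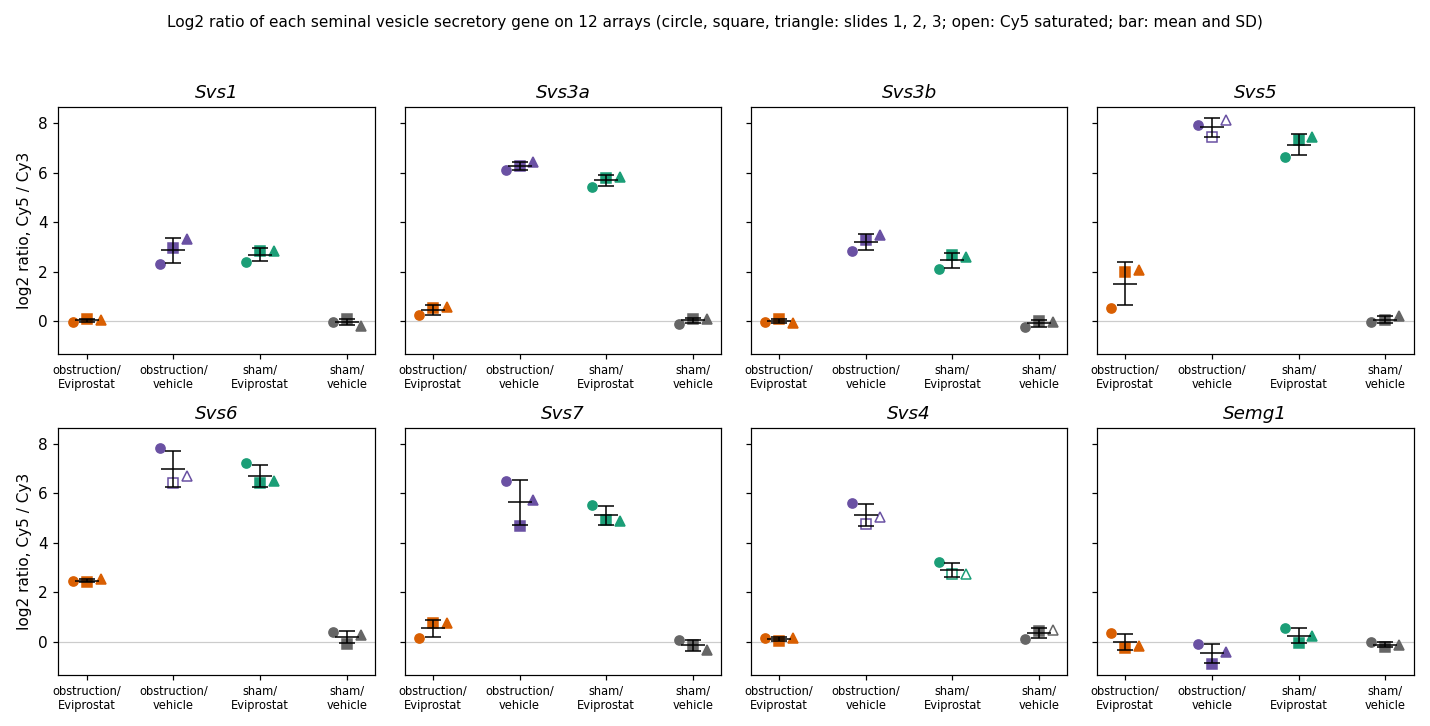
Log2 ratio of Cy5 to Cy3 (vertical axis) for the 8 genes on each of 12 arrays, by group; symbols stand for slides, open symbols for saturated Cy5 spots, and bars for the group mean and SD. Obstruction/vehicle and sham/Eviprostat arrays are high for 7 genes, obstruction/Eviprostat and sham/vehicle arrays lie near 0 for most, and Semg1 lies between -0.89 and 0.55 on all arrays.

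Svs5 and Svs6 code for small secreted proteins of the seminal vesicle fluid and are neighbours. Svs5 had log2 ratios of 7.93, 7.43 and 8.15 on the obstruction/vehicle arrays, against -0.05, 0.04 and 0.20 on the sham/vehicle arrays. The groups did not overlap, which here and below describes the arrays of 2 groups and is no test. The difference was 7.77 ± 0.35 (SE, n = 3 each), 219-fold (limma adjusted p = 6.57e-08). Within slides 1, 2 and 3 it was 7.98, 7.39 and 7.95. Svs6 had 7.82, 6.41 and 6.71 on the obstruction/vehicle arrays, against 0.39, -0.07 and 0.29 on the sham/vehicle arrays. It was 110-fold higher, with a log2 difference of 6.78 ± 0.31 (limma adjusted p = 6.57e-08). Cy5 of both probes was saturated on 2 of the 3 obstruction/vehicle arrays, where its brightness is only a lower limit.

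Svs3a and Svs3b code for closely related clot proteins. Svs3a had log2 ratios of 6.13, 6.26 and 6.44 on the obstruction/vehicle arrays, against -0.10, 0.10 and 0.09 on the sham/vehicle arrays, a log2 difference of 6.24 ± 0.13 (limma adjusted p = 1.5e-10). Svs3b had 2.82, 3.29 and 3.47, against -0.23, 0.01 and -0.05 on the sham/vehicle arrays, a difference of 3.28 ± 0.17 (limma adjusted p = 2.18e-07). Both were higher on every obstruction/vehicle array than on any sham/vehicle array. Svs3b moved less than Svs3a in the ratio and also in Cy5 alone, by 6.93 against 9.25. Its Cy3 signal moved more, as given below.

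Svs1, related to the copper amine oxidases, had log2 ratios of 2.33, 2.96 and 3.32 on the obstruction/vehicle arrays, against -0.04, 0.07 and -0.18 on the sham/vehicle arrays. The log2 difference was 2.92 ± 0.21 (limma adjusted p = 2.47e-06). Svs7, which in the mouse codes for a caltrin-like protein that binds sperm, had 6.49, 4.69 and 5.75 on the obstruction/vehicle arrays, against 0.08, -0.15 and -0.35 on the sham/vehicle arrays. Neither gene's groups overlapped. In sham/vehicle the Svs7 probe was never well above background in Cy5, so its change is given as a bound: it was at least 326-fold higher in Cy5 level in obstruction/vehicle. That bound sets the mean normalised Cy5 level of the bright group against, on each dim array, the higher of the dimmest level well above background and the probe's own. It uses Cy5 alone, stays exposed to dye bias, and is another measure than the fitted log2 ratio difference of 5.78 ± 0.36 (limma adjusted p = 9.37e-07).

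Svs4, a small abundant secretory protein with anti-inflammatory actions described in the rat, had log2 ratios of 5.61, 4.75 and 5.03 on the obstruction/vehicle arrays, against 0.13, 0.44 and 0.47 on the sham/vehicle arrays. The difference in log2 ratio was 4.78 ± 0.20 (limma adjusted p = 3.65e-08). Its Cy5 intensities were 498000, 597000 and 591000 on the obstruction/vehicle arrays, against 129000, 585000 and 603000 on the sham/vehicle arrays. On slides 2 and 3 they stood at or near the ceiling of the scanner, with 2 obstruction/vehicle spots and 1 sham/vehicle spot saturated, so the Cy5 difference of 0.63 ± 0.45 (limma adjusted p = 0.432) does not show that the groups were alike. On slide 1, where no Svs4 spot was saturated, Cy5 was 498000 in obstruction/vehicle against 129000 in sham/vehicle. Cy3, which carried sham/vehicle RNA on all arrays, had Svs4 intensities of 12400, 6200 and 6350 on the obstruction/vehicle arrays, against 170000, 124000 and 127000 on the sham/vehicle arrays. The Svs4 ratio was thus high on arrays where its Cy3 signal, from the common sham/vehicle RNA, was low.

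Semg1, the rodent counterpart of semenogelin and a main substrate of the clotting transglutaminase, was bright on all 12 arrays in both dyes. Its log2 ratios were -0.10, -0.89 and -0.42 on the obstruction/vehicle arrays, against 0.00, -0.22 and -0.12 on the sham/vehicle arrays, and the groups overlapped. The difference was -0.36 ± 0.21 (limma adjusted p = 0.344). With the slide as a block, the same difference had a limma adjusted p of 0.0221. In Cy5 alone it was 0.09 ± 0.15 (limma adjusted p = 0.785).

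The next comparison asked what Eviprostat did in obstructed rats. All members but Semg1 were lower in obstruction/Eviprostat than in obstruction/vehicle, 7 lower and 0 higher, while 5.89% of all probes were called lower and 3.9% higher. The comparison shares its obstruction/vehicle arrays with the one above. The members' median log2 difference was -4.76, against 0.01 over all probes. Svs5 had log2 ratios of 0.52, 1.99 and 2.05 on the obstruction/Eviprostat arrays, the first of them on slide 1, and its difference was -6.31 ± 0.35, 79.5-fold lower (limma adjusted p = 4.66e-07). Svs6 had 2.46, 2.41 and 2.55 on the obstruction/Eviprostat arrays and a difference of -4.51 ± 0.31 (limma adjusted p = 2.42e-06). Both genes lay well below every obstruction/vehicle array, 2 of which had saturated Cy5 for them. The sizes of these falls are thus not exact. By the scanner software's log ratio they were smaller, -5.28 for Svs5 and -3.66 for Svs6. Svs3a had 0.24, 0.55 and 0.57 on the obstruction/Eviprostat arrays and a difference of -5.83 ± 0.13 (limma adjusted p = 2.9e-10). Svs7 had 0.14, 0.76 and 0.74 there and a difference of -5.09 ± 0.36 (limma adjusted p = 3.39e-06), with Cy5 well above background on 2 of the 3 obstruction/Eviprostat arrays. Svs1, with -0.02, 0.09 and 0.06, and Svs3b, with -0.02, 0.08 and -0.06, lay close to the ratios of the sham/vehicle arrays. Their differences were -2.83 ± 0.21 for Svs1 and -3.19 ± 0.17 for Svs3b. The Svs4 ratio fell by 5.01 on the log2 scale, and Svs4 in Cy5 alone, saturated on 2 obstruction/vehicle arrays, differed by -0.78 ± 0.45 (limma adjusted p = 0.329). Semg1 differed by 0.45 ± 0.21 (limma adjusted p = 0.242; 0.0076 with the slide as a block).

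Eviprostat was also given to sham rats, and there the same 7 members were higher: 7 of 8 in sham/Eviprostat than in sham/vehicle, with none lower. Of all probes 0.87% were called higher and 0.659% lower. The median log2 difference of the members was 4, against 0 over all probes. Svs5 again ranked 1 of all probes by absolute difference, Svs6 2, Svs3a 3 and Svs7 5. Svs5 had log2 ratios of 6.65, 7.33 and 7.43 on the sham/Eviprostat arrays, 135-fold above sham/vehicle (log2 difference 7.08 ± 0.35, limma adjusted p = 8.02e-07). Svs6 had 7.22, 6.41 and 6.50 on the sham/Eviprostat arrays, a difference of 6.51 ± 0.31 (limma adjusted p = 5.12e-07). No sham/Eviprostat array overlapped a sham/vehicle array for either gene. Svs3a had 5.44, 5.78 and 5.84 on the sham/Eviprostat arrays (difference 5.66 ± 0.13), and Svs7 had 5.55, 4.92 and 4.88. For Svs7 the Cy5 level was at least 63.6-fold higher than in sham/vehicle (limma adjusted p of the ratio = 1.13e-05). Svs1 had 2.39, 2.85 and 2.83 on the sham/Eviprostat arrays (difference 2.74 ± 0.21) and Svs3b 2.10, 2.67 and 2.60 (difference 2.55 ± 0.17). With median centring in place of loess the Svs3b difference was 2.66 with a limma adjusted p of 0.094. Svs4 rose in the ratio by 2.56 ± 0.20, and its Cy5 difference was 0.29 ± 0.45 (limma adjusted p = 0.986) with 2 sham/Eviprostat spots and 1 sham/vehicle spot saturated. On slide 1, where none was, Svs4 had a Cy5 intensity of 423000 in sham/Eviprostat against 129000 in sham/vehicle. Semg1 differed by 0.36 ± 0.21 (limma adjusted p = 0.666), but by 0.44 with an adjusted p of 0.0295 in limma on the scanner software's log ratio.

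Eviprostat thus went with higher member signals in sham rats and with lower ones in obstructed rats, and the difference between these effects was tested as an interaction. For 7 members the effect in obstructed rats minus that in sham rats was below 0 and passed the test, against 4.89% of all probes called below 0 and 3.78% above it. It was -13.39 ± 0.50 for Svs5 (limma adjusted p = 1.88e-08), -11.48 ± 0.19 for Svs3a and -11.01 ± 0.44 for Svs6. It was -10.35 ± 0.51 for Svs7, -5.74 ± 0.25 for Svs3b and -5.57 ± 0.29 for Svs1. The direction was the same within each of the 3 slides for these 6 genes. The sizes for Svs5 and Svs6 are limited by Cy5 saturation in obstruction/vehicle. That for Svs7 describes the fitted ratio and is not exact, since in sham/vehicle its Cy5 was never well above background. For Svs4 it was -7.57 ± 0.28 in the ratio and -1.07 ± 0.63 in Cy5 alone (limma adjusted p = 0.376), with 5 of 12 Cy5 spots saturated. For Semg1 it was 0.09 ± 0.30 (limma adjusted p = 0.904).

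Among Eviprostat-treated rats, obstruction/Eviprostat lay below sham/Eviprostat for the same 7 members, with 1.31% of all probes called lower and 0.97% higher. The differences were -5.62 ± 0.35 for Svs5, -5.24 ± 0.13 for Svs3a, -4.56 ± 0.36 for Svs7 and -4.23 ± 0.31 for Svs6. They were -2.65 ± 0.21 for Svs1, -2.46 ± 0.17 for Svs3b and -2.78 ± 0.20 for Svs4, the last with -0.44 ± 0.45 in Cy5 alone (limma adjusted p = 0.926) and 2 saturated sham/Eviprostat spots. Semg1 passed the test only with the scanner software's log ratio among the alternatives run, where it differed by -0.54 (limma adjusted p = 0.00865). Median centring gave Svs3b -2.57 with a limma adjusted p of 0.0791.

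The obstruction/Eviprostat arrays were then set against sham/vehicle, the 2 groups in which most members were low. Svs6 alone passed the test, with 0.175% of all probes called higher and 0.119% lower: its log2 difference was 2.27 ± 0.31, 4.83-fold (limma adjusted p = 0.00816). The 3 obstruction/Eviprostat arrays were all above the 3 sham/vehicle arrays for Svs6. This call was lost, at limma adjusted p = 0.0539 to 0.752, when obstruction/Eviprostat replicate 2 or 3, sham/vehicle replicate 2, or slide 2 or 3 was left out. Svs5 differed by 1.46 ± 0.35 (limma adjusted p = 0.201), and with the slide as a block by the same amount with a limma adjusted p of 0.0126. Its Cy3 was well above background on 1 of the 3 obstruction/Eviprostat and 2 of the 3 sham/vehicle arrays, so this size is not exact. Svs3a differed by 0.42 ± 0.13 (limma adjusted p = 0.489; 0.0117 with the block). Svs7 differed by 0.69, Svs1 by 0.09, Svs3b by 0.09, Semg1 by 0.09 and Svs4 by -0.23, none past the threshold. With the scanner software's log ratio, Svs5 (2.96), Svs7 (2.19) and Svs3a (0.63) passed too, at limma adjusted p of 0.000144, 0.00473 and 0.00272. The Svs7 size is not exact, since in sham/vehicle its Cy5 was never well above background.

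The 2 groups in which members were high were compared after their values had been seen. In the log2 ratio, obstruction/vehicle was above sham/Eviprostat for 3 members, Svs3a by 0.59 ± 0.13 (limma adjusted p = 0.0152), Svs3b by 0.73 ± 0.17 (limma adjusted p = 0.0194) and Svs4 by 2.23 ± 0.20 (limma adjusted p = 1.96e-05), against 6.04% of all probes. In Cy5 alone it was above for 5 members, against 7.85% of all probes: Svs7 by 2.36, Svs3b by 2.32, Svs1 by 2.29, Svs3a by 1.85 and Svs5 by 1.56. Svs6 differed by 0.75 ± 0.45 in Cy5 alone (limma adjusted p = 0.353), with 2 saturated obstruction/vehicle spots. Semg1 differed by -0.72 ± 0.21 in the ratio (limma adjusted p = 0.0557; 0.000367 with the slide as a block, which makes 1 member lower). By mean ratio, 7 members were ordered with obstruction/vehicle first and sham/Eviprostat after it, then the other groups. This order was read from the values, was not tested as a whole and is given without its share over all probes. The neighbours obstruction/vehicle and sham/Eviprostat did not differ beyond the test for Svs1, Svs5, Svs6 and Svs7 in the ratio.

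The signal of each dye was examined because Cy3 held sham/vehicle RNA on every array. Svs1 had Cy3 intensities of 334, 386 and 412 on the obstruction/Eviprostat arrays, 6760, 5450 and 5620 on obstruction/vehicle, 1660, 1610 and 1730 on sham/Eviprostat, and 341, 363 and 384 on sham/vehicle. Cy3 was thus far brighter where Cy5 was bright: mean Cy5 intensity was 463 in obstruction/Eviprostat, 110000 in obstruction/vehicle, 28100 in sham/Eviprostat and 429 in sham/vehicle. In Cy3 alone, 6 members were higher in obstruction/vehicle than in sham/vehicle and 1, Svs4, was lower. Over all probes 0.177% were called higher and 0.0222% lower in Cy3. The Cy3 differences were 5.87 for Svs1, 3.92 for Svs6, 3.65 for Svs3b, 3.26 for Svs5, 3.00 for Svs3a, 2.66 for Svs7 and -4.16 for Svs4. They held with limma adjusted p of at most 7.37e-05. In Cy3 too the Svs7 probe was never well above background in sham/vehicle, so its size is not exact. Semg1 differed by 0.45 in Cy3 (limma adjusted p = 0.746; 0.0153 with the slide as a block, which makes 7 members higher). In sham/Eviprostat, Cy3 was higher for 5 members, not Svs7, and lower for Svs4, against 0.0166% and 0.00277% of all probes. In obstruction/Eviprostat no member's Cy3 differed from sham/vehicle by limma, 0 of 8 even at an unadjusted p below 0.05, and 0.00277% of all probes were called higher; for Svs3a, for example, the Cy3 difference was -0.04 ± 0.08.

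**Figure D2:**
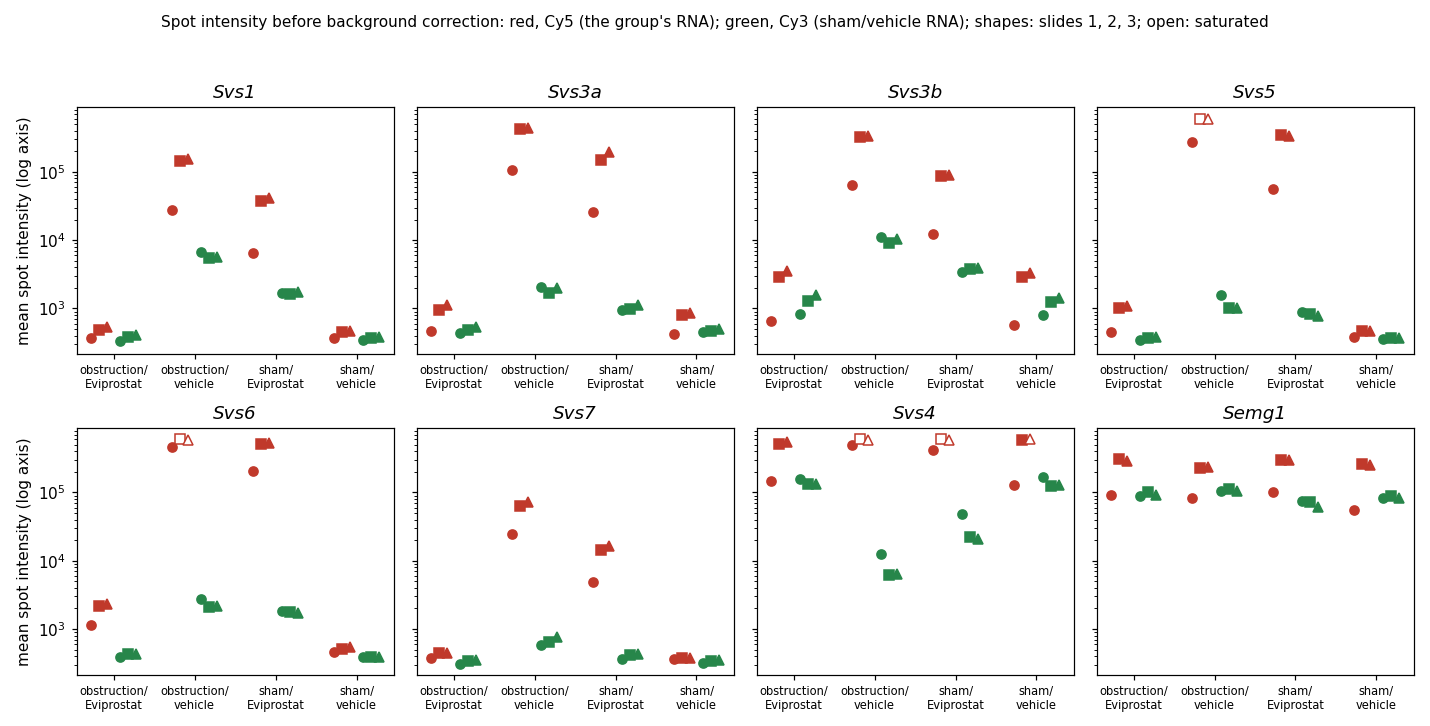
Mean spot intensity before background correction (log axis) of the 8 genes on each array, Cy5 in red and Cy3 in green, by group, with open symbols for saturated spots. For Svs1 the Cy3 signal averages 377 in obstruction/Eviprostat, 5940 in obstruction/vehicle, 1670 in sham/Eviprostat and 363 in sham/vehicle, and for Svs4 it averages 141000, 8300, 30500 and 140000 in the same order.

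Cy3 as a share of Cy5, after local background was subtracted, was 3.56% and 3.41% for Svs1 on slides 2 and 3 of obstruction/vehicle, and 24.1% on slide 1. For Svs5, saturated in Cy5 on slides 2 and 3 of obstruction/vehicle, it was at most 0.119% and 0.122% there, and 0.486% on slide 1. The share of Svs1 was higher on slide 1, whose Cy5 was dimmer, and on each of these slides it was higher for Svs1 than for Svs5. The source of the Cy3 signal was not tested. Because the ratio subtracts Cy3, the Cy5 differences of 6 members exceeded their ratio differences. In obstruction/vehicle against sham/vehicle the Cy5 differences were 11.04 ± 0.24 for Svs5, 10.70 ± 0.45 for Svs6, 9.25 ± 0.13 for Svs3a, 8.80 ± 0.16 for Svs1, 8.44 ± 0.21 for Svs7 and 6.93 ± 0.32 for Svs3b. The size for Svs7 is not exact, since in sham/vehicle its Cy5 was never well above background. These 6 were called higher in Cy5 alone, against 9.12% of all probes, and no member was lower.

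**Figure D3:**
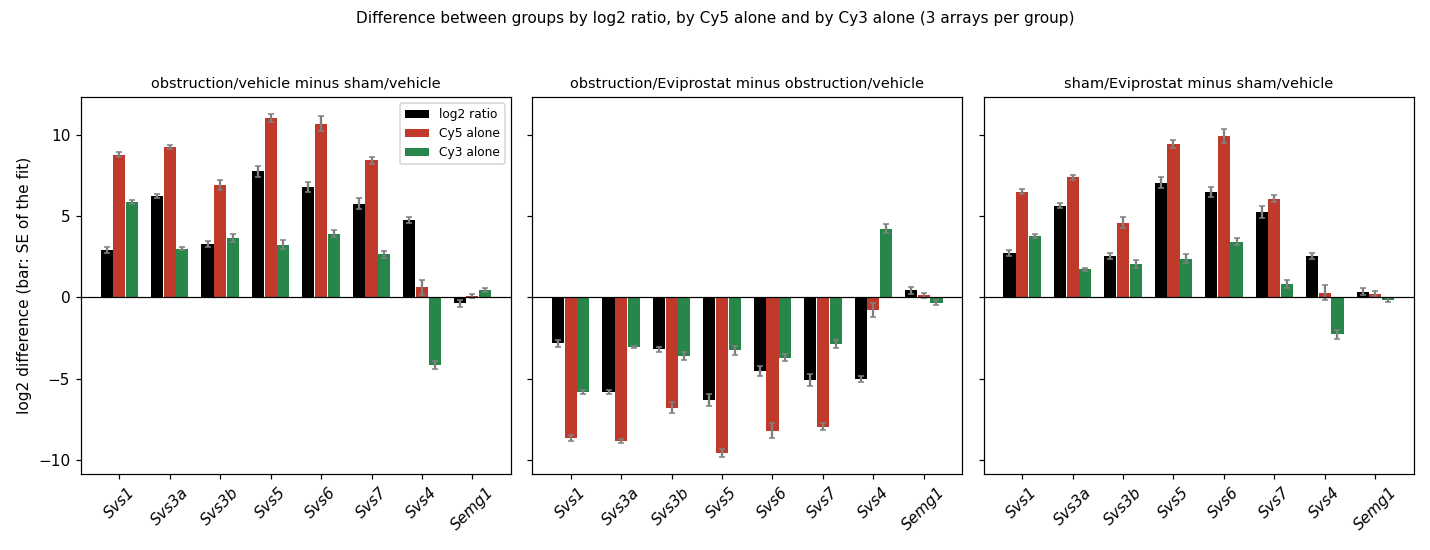
Difference between groups in log2 ratio (black), in Cy5 alone (red) and in Cy3 alone (green) for each gene, with the SE of the fit, for 3 comparisons of 3 arrays per group. In obstruction/vehicle minus sham/vehicle, Svs5 differs by 7.77 in the ratio, 11.04 in Cy5 and 3.26 in Cy3, and Svs4 by 4.78, 0.63 and -4.16.

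Saturation touched 3 members. Svs5 and Svs6 had saturated Cy5 on 2 obstruction/vehicle arrays each, and Svs4 on 2 obstruction/vehicle, 2 sham/Eviprostat and 1 sham/vehicle array. No member spot was saturated in Cy3.

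Across the 12 arrays, each member's log2 ratio was set beside the mean standardised profile of the other 7. Pearson's r was 0.991 for Svs7, 0.984 for Svs3a, 0.977 for Svs5, 0.972 for Svs6, 0.957 for Svs1 and 0.948 for Svs3b. It was 0.891 for Svs4 and -0.145 for Semg1. The arrays fall into 4 groups and share the Cy3 sample, so these values describe the group pattern. Of 189 named genes outside the family with an SD of at least 1, the profiles most like the members' mean were those of Serpina5 (r = 0.988 over 12 arrays), Wfdc21 (0.986), LOC292872 (0.986), Spink1l (0.984) and Klk1c9 (0.981). Serpina5, a serine protease inhibitor known as protein C inhibitor, had mean log2 ratios of 0.17 in obstruction/Eviprostat, 6.64 in obstruction/vehicle, 5.73 in sham/Eviprostat and 0.33 in sham/vehicle. Spink1l, a Kazal-type trypsin inhibitor, had 0.21, 5.89, 4.73 and -0.07 in that order of groups. Wfdc21, with a whey acidic protein domain, had 0.15, 4.04, 3.79 and 0.01. LOC292872, described on the array as similar to kallikrein, and Klk1c9, a glandular kallikrein, belong to a family of near-identical copies whose probes may share signal.

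Other genes of the seminal plasma were counted from a list of coagulum and seminal vesicle partners, of which 11 of 12 on the array were kept. In obstruction/vehicle against sham/vehicle 7 were higher and none lower, with a median log2 difference of 0.88 against 0 over all named genes. Of all probes, 7.16% were called higher and 4.45% lower in that comparison. Serpina5 was higher by 6.31 ± 0.31, Spink1l by 5.97 ± 0.32 and Spink1 by 2.47 ± 0.35. In sham/vehicle neither Spink gene was well above background, and as bounds on the Cy5 level Spink1l was at least 279-fold and Spink1 at least 21.7-fold higher. Serpine2, a further serine protease inhibitor, was higher by 1.48 ± 0.32 (limma adjusted p = 0.0108). In sham/Eviprostat against sham/vehicle 3 were higher, Serpina5 by 5.39, Spink1l by 4.80 and Klk1, tissue kallikrein, by 1.30, and none was lower. There 0.87% of all probes were called higher and 0.659% lower. In obstruction/Eviprostat against obstruction/vehicle 5 were lower and none higher, against 5.89% and 3.9% of all probes. Tgm4, the clotting transglutaminase itself, was dim on all arrays, with Cy5 intensities of 379 to 582 in obstruction/Eviprostat, 383 to 567 in obstruction/vehicle, 385 to 564 in sham/Eviprostat and 376 to 515 in sham/vehicle. It differed by -0.06 ± 0.09 in obstruction/vehicle against sham/vehicle (limma adjusted p = 0.729).

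Genes beside the cluster were described within 500 kb on either side of its centre in rn3. Of 35 probes there outside the family, 32 were kept, and 7 were higher and 2 lower in obstruction/vehicle than in sham/vehicle, with a median of 0.065. Of all probes, 7.16% were called higher and 4.45% lower in that comparison. Slpi, a secreted leukocyte protease inhibitor of the whey acidic protein family, lay 150.5 kb from the centre and was higher by 5.16 ± 0.11 (limma adjusted p = 1.5e-10). It was higher by 2.98 ± 0.11 in sham/Eviprostat than in sham/vehicle (limma adjusted p = 7.96e-08) and lower in obstruction/Eviprostat than in obstruction/vehicle, with a difference of -4.79 ± 0.11. Sdc4, a cell-surface heparan sulfate proteoglycan, was higher by 2.24 in obstruction/vehicle but differed by -0.01 in sham/Eviprostat against sham/vehicle (limma adjusted p = 0.996). Wfdc5, on the Semg1 side, was lower in both, with differences of -1.83 and -1.67. An unnamed probe inside the cluster was lower in obstruction/vehicle than in sham/vehicle, with a difference of -2.03, beside the higher members. Of 20 named neighbour genes kept in a wider list, 2 were higher and 2 lower in obstruction/vehicle, the largest fall being -2.88 for Wfdc3, and the list median was -0.09. In sham/Eviprostat against sham/vehicle 3 window probes were higher and 1 lower, against 0.87% and 0.659% of all probes. The next probe past Svs5, RGD1563818, lay 56.8 kb from the centre and had the members' direction. It was higher by 4.74 in obstruction/vehicle and by 2.01 in sham/Eviprostat, each against sham/vehicle (limma adjusted p = 6.4e-07 and 0.00338). The window and the list held both higher and lower genes, and most of the named neighbours in the list were not called. A pseudogene copy near Slpi may share its signal, and its probe and the Slpi probes were among the 7 called higher in the window.

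**Figure D4:**
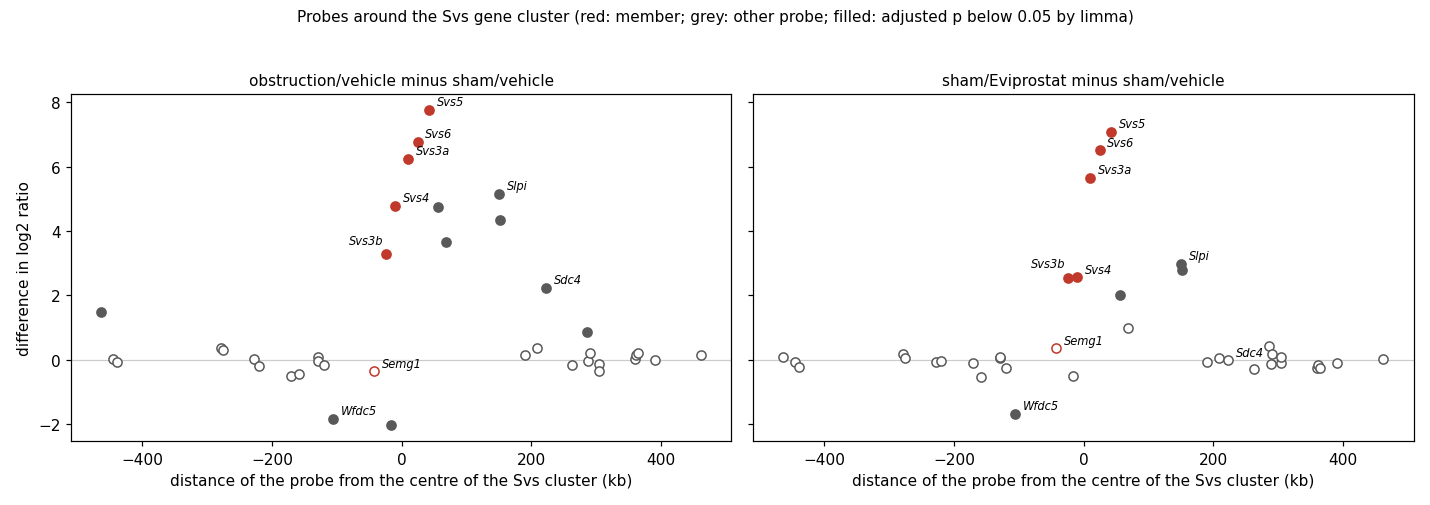
Difference in log2 ratio (vertical axis) of kept probes against their distance in kb from the centre of the Svs cluster, for obstruction/vehicle minus sham/vehicle (left) and sham/Eviprostat minus sham/vehicle (right); members in red, other probes in grey, filled where limma's adjusted p was below 0.05. Svs5, Svs6 and Svs3a stand at 7.77, 6.78 and 6.24 on the left, Semg1 at -0.36, and Slpi at 5.16.

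Markers of other cells and tissues moved with some of these comparisons, and their part in the results was not tested. The 6 macrophage genes had a summed normalised Cy5 level of 7920 to 9640 in obstruction/Eviprostat, 42000 to 56000 in obstruction/vehicle, 4660 to 5940 in sham/Eviprostat and 5510 to 7610 in sham/vehicle. All 6 were well above background on every array. In obstruction/vehicle 5 of 6 were higher than in sham/vehicle, led by Tyrobp and Lyz2 (2.68 each), Cd68 (1.94) and Csf1r (1.32). The gene not called, Ptprc, differed by -0.06 ± 0.09 (limma adjusted p = 0.764). Lyz2 and Tyrobp were the brightest of the list there, with Cy5 intensities of up to 75200 and 35900, and so weigh most in the sum. In sham/Eviprostat 0 of 6 were called by limma in either direction. The 1 of 6 at an unadjusted p below 0.05 was Lyz2, which was lower there, with a difference of -0.46 ± 0.12 (limma adjusted p = 0.0914). Over all probes, 7.16% were called higher and 4.45% lower in obstruction/vehicle, and 0.87% and 0.659% in sham/Eviprostat, each against sham/vehicle. The 3 urothelial genes summed to 1120 to 1270 in obstruction/Eviprostat, 13300 to 17600 in obstruction/vehicle, 1780 to 2140 in sham/Eviprostat and 1200 to 1800 in sham/vehicle, with Upk3a (3.30) and Upk1b (2.88) higher in obstruction/vehicle and 0 of 3 called in sham/Eviprostat by limma (0 at an unadjusted p below 0.05). Upk3b differed by 0.11 ± 0.15 in obstruction/vehicle against sham/vehicle (limma adjusted p = 0.736). Both marker sums, macrophage and urothelial, were highest in obstruction/vehicle, and how they relate to the member ratios was not tested. Of 6 kept epididymal and vas deferens genes, none was called by limma in obstruction/vehicle against sham/vehicle (0 at an unadjusted p below 0.05) and 1, Defb1, was lower in sham/Eviprostat, with a difference of -1.15. Rnase9, an epididymal marker, was near background in all groups. The list's sum was 23100 to 29100 in obstruction/Eviprostat, 13400 to 18100 in obstruction/vehicle, 7570 to 10500 in sham/Eviprostat and 16700 to 19500 in sham/vehicle. Defb1, a beta-defensin, made up most of it, with Cy5 intensities of 11900 to 65100 in obstruction/Eviprostat, 6840 to 37300 in obstruction/vehicle, 3960 to 27400 in sham/Eviprostat and 7250 to 42200 in sham/vehicle, while the other 5 genes lay between 363 and 1350.

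Of 13 kept genes of the rat prostate lobes, 3 were higher and 4 lower in obstruction/vehicle than in sham/vehicle (median -0.18), and 4 were higher and none lower in sham/Eviprostat (median 0.06). Over all probes, 7.16% were called higher and 4.45% lower in the first comparison, and 0.87% and 0.659% in the second. Scgb1d2, a secretoglobin, was higher by 4.33 in obstruction/vehicle and by 4.20 in sham/Eviprostat, each against sham/vehicle. Sbp, a spermine-binding protein of the ventral prostate, was higher by 2.77 and 2.65, and Scgb2a1 by 1.98 and 1.52. The fourth gene higher in sham/Eviprostat was Andpro, by 5.23 ± 0.21 (limma adjusted p = 1.1e-07). In obstruction/vehicle against sham/vehicle it differed by -0.68 ± 0.21 (limma adjusted p = 0.0631), unlike the 7 members called higher there. Msmb was lower in obstruction/vehicle, with a difference of -1.60. Some secretory genes of the prostate thus had the members' direction and others the opposite one. Among 12 kept genes of the androgen axis, 1 was higher and 2 lower in obstruction/vehicle against sham/vehicle (Ndrg1 2.59, Slc45a3 -1.26, Fkbp5 -1.24), with a list median of -0.16, and 0 were higher and 1 lower in sham/Eviprostat. These counts stand beside the same shares of all probes.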

How the data were processed

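The authors deposited, per the file headers, mean spot and local background intensity of both dyes and a log10 ratio of red over green, written by Agilent Feature Extraction 9.5.1.1 (named in the submitters' processing notes too), with probe positions on rn3. Per the labels, 1500 ng of sham/vehicle RNA and 300 ng of each other group's RNA were labelled. The series-wide values equal the deposited log10 ratio, with a largest difference of 0. From the deposited intensities, log2 ratios were computed in limma 3.58.1 (R 4.3.3, data.table version 1.17.8) with normexp background correction, an offset of 50 and loess within arrays. Single channels were scaled with Aquantile after loess. Control and outlier spots were left out, saturated spots kept. One limma fit of 12 arrays with 4 group means (8 residual degrees of freedom) was adjusted by Benjamini-Hochberg over 36097 probes at 0.05, and the fit was tested on simulated data. Names came from the RefSeq annotation, which named 10735 probes by accession, 5571 by symbol, 3729 by synonym, 3371 by the array's symbol, and left 17606 without a name, giving 17099 named genes, each by its brightest kept probe. RefSeq positions are on GRCr8 and were not converted. Sequences were read with Biopython 1.88 and figures drawn with matplotlib 3.10.9 in Python 3.11.15.

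Slide number followed replicate number on all arrays and each slide held all groups, so the numbers pair the arrays by slide. Same-numbered arrays deviated together, with correlations of 0.16 to 0.78. Slide 1 was scanned on another day than the other 2 slides. Genes named were all members, from each gene list up to 4 called genes with the largest absolute difference in obstruction/vehicle against sham/vehicle and any defining marker at background, and the 5 genes of most similar profile. Genes given for the other comparisons beside a count of 5 or fewer were named after their values were seen, as were RGD1563818, Ptprc and Upk3b. The members, lists and tests were chosen with earlier results of these data known.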

Additional observations from a re-analysis of the deposited data

Results flagged for a closer look

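The effect of Eviprostat differed between obstructed and sham rats for 7 of the 8 genes, by limma's interaction term with Benjamini-Hochberg adjustment. The difference (obstructed minus sham, in log2 ratio) was -13.39 for Svs5, -11.48 for Svs3a, -11.01 for Svs6, -10.35 for Svs7, -7.57 for Svs4, -5.74 for Svs3b and -5.57 for Svs1. In Cy5 alone it was -1.07 for Svs4, with a limma adjusted p of 0.376 and 5 of 12 spots saturated. The sizes for Svs5 and Svs6 are limited by saturated Cy5 in obstruction/vehicle, and that for Svs7 is not exact, since in sham/vehicle its Cy5 was never well above background.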

How the results depend on the processing

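Calls of Svs1, Svs3a, Svs5, Svs6 and Svs7 in the 4 comparisons in which 7 members passed, and in the interaction, held under every alternative run: background offset 16, the scanner software's log ratio, median centring, Cy5 alone, no filter on dim probes, saturated spots left out, the replicate block, only the groups compared, and each array or slide left out. Svs3b lost 2 calls with median centring and Svs4, saturated in Cy5 on 5 of 12 arrays, lost all its calls in Cy5 alone. Sizes moved more than calls: for obstruction/vehicle against sham/vehicle Svs1 ranged from 2.63 to 8.80 and Svs5 from 7.62 to 11.04.

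The number of members lower in obstruction/vehicle than in sham/vehicle was 1, in place of 0, by the scanner log ratio and also by the replicate block (slides pairing the arrays); the gene was Semg1 both times. The number higher in obstruction/Eviprostat than in obstruction/vehicle was 1, in place of 0, with the replicate block, Semg1 again. The number higher in obstruction/Eviprostat than in sham/vehicle, 1 in the reported fit, was 4 with the scanner software's log ratio, 2 in Cy5 alone, 3 with the replicate block (Svs3a, Svs5 and Svs6), and 0 to 2 when single arrays or slides were left out. In Cy3, the number lower in sham/Eviprostat than in sham/vehicle was 0, in place of 1, with the processed Cy3 signal. By the scanner log ratio Semg1 also passed in sham/Eviprostat against sham/vehicle (0.44, 8 members higher) and in obstruction/Eviprostat against sham/Eviprostat (-0.54, 8 lower). The block changed no other call of a member, except those of Semg1 in the ratio between the 2 high groups and in Cy3 between obstruction/vehicle and sham/vehicle. The cause of these changes was not tested. No value that passed the test changed sign. Cy5 saturation limits Svs4, Svs5 and Svs6 at the top, and background limits Svs7, Svs1 and, in Cy3, Svs5 at the bottom.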
